A study of Mus musculus with 161 samples.

Results

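The H288R libraries are chromosome-conformation capture carbon copy (5C) maps of mouse embryonic stem cells whose only induced CTCF carries a point mutation, H288R, in zinc finger 1. They were chosen by the genotype in their labels, and they are 2 of the 91 5C libraries of the series. The 14 libraries used for comparison came from the line with the full-length CTCF transgene. All cells were male E14Tg2a derivatives of 129/Ola background in which endogenous CTCF was fused to an auxin-inducible degron (AID) and the Tir1 F-box protein was expressed. Both lines also carried the rtTA3G activator and a TetO-driven, FLAG-tagged CTCF cDNA, and were kept for 4 days in 500 µM indole-3-acetic acid (the auxin) and 1 µg/ml doxycycline (dox). The endogenous protein was therefore degraded while the transgene was induced in both groups. Further groups were 2 libraries of the deletion labelled 264-288, 2 of a full-length line labelled low expression, both with auxin and dox, and 2 of the full-length line with auxin alone. Each line is a single clone, the amount of transgenic protein was not analysed here, and nothing in the labels says that replicates came from separate cultures, so p-values measure only the spread between libraries. 5C ligation counts also cannot tell a contact made in more cells from one made more often in each cell.

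CTCF binds DNA through an array of zinc fingers and halts the cohesin complex as it extrudes DNA loops, so that contacts concentrate within topologically associating domains (TADs) and are rarer across their boundaries. Loops tend to join CTCF motifs that point toward each other. In a C2H2 zinc finger a pair of cysteines and a pair of histidines hold the zinc ion that gives the finger its fold. Zinc finger 1 is the first of the array and lies next to a region implicated in RNA binding. The region studied is the X-inactivation centre on the X chromosome, home of Xist, the noncoding RNA that silences an X chromosome in female cells, and of its antisense repressor Tsix.

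The sequence that was altered is shown first, because the comparison rests on 1 codon. In the mouse reference (mm9, GENCODE vM1), codon 288 of Ctcf lies in exon 4 of 12 at chr8:108188836-108188838 on the forward strand. It encodes histidine, the last of the zinc-holding residues of the finger. The 69 coding bases of the finger, up to this residue, read as follows, with codon 288 in capitals. The base change made in the transgene is not given in the sources used here.
Ctcf zinc finger 1, chr8:108188770-108188838: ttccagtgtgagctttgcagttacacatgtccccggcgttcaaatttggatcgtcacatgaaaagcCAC

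The 5C region spans 4.6 Mb, from chrX:98831149 to 103431148, and was read in 20-kb bins. It holds 78 of the 49682 peaks of full-length FLAG-CTCF, called after 2 days of auxin and dox, and no peaks of the H288R protein were analysed here. A 12-letter form of the core motif (CC, NNN, AG, NN and GGC in a row, where N is any base) was searched on both strands of each 200-bp peak. It was found in 50.8% of all peaks, in 39 of the 78 peaks of the region, and in 2.28% of 23000 pieces of the region of the same length. A match is a description of letters, not proof of a bound site. The peaks shown are those with a match in the bins on which the results turn. Bases are from the mm9 genome, forward strand, with the match in capitals. Both boundary 4 peaks lie within Tsix, and the first also within Xist. Both peaks of the Tsix bin lie within Tsix, and that of the Rlim bin before the start of Rlim. Both peaks labelled as beside boundary 5 lie within C77370, several bins after the boundary bin, which itself holds no peak.
Boundary 4, first peak, chrX:100676984-100677183, match on the forward strand: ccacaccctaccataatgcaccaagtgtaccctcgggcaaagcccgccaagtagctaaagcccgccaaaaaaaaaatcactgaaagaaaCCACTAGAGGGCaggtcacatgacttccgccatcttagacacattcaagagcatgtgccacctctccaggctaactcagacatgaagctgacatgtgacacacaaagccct
Boundary 4, second peak, chrX:100679482-100679681, match on the forward strand: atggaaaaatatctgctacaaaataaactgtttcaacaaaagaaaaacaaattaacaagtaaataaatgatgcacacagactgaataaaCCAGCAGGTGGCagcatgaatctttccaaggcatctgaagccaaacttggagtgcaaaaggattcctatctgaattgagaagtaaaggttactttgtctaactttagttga
Rlim bin, chrX:101185864-101186063, match on the reverse strand: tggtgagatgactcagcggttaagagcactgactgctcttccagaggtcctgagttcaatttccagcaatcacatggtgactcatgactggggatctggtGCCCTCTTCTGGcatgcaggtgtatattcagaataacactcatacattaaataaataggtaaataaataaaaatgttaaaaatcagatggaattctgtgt
Tsix bin, chrX:100639186-100639385, match on the reverse strand: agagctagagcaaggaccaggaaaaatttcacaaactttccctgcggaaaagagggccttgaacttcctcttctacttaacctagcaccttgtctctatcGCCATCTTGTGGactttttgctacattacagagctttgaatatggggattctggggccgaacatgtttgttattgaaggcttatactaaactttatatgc
Tsix bin, chrX:100649485-100649684, match on the reverse strand: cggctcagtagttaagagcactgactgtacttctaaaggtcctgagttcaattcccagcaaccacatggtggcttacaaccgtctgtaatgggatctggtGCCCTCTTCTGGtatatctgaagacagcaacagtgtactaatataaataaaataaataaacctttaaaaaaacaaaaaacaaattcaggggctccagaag
Beside boundary 5, chrX:101307049-101307248, match on the forward strand: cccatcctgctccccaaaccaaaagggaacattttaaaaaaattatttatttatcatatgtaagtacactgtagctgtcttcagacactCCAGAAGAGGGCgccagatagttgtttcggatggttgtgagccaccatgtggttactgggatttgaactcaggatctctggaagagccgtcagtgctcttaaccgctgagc
Beside boundary 5, chrX:101309995-101310194, match on the reverse strand: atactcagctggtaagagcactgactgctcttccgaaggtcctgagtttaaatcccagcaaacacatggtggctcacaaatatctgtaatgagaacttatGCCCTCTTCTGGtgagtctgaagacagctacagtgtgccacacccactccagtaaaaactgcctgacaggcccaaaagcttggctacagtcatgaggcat

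The 2 H288R libraries held 12036607 and 13494959 counted ligation products. The libraries of both groups ranged from 5262254 to 23096139, over those whose count matrix is complete (12 of the 14 full-length libraries). After the authors' correction, 42.65% and 42.85% of primer pairs were 0 in H288R, against 27.4% to 58.8% in the full-length libraries. Both H288R libraries belong to a run of 12 consecutive library numbers, which also holds 2 full-length libraries. The labels do not call such a run a batch, but values against these 2 libraries alone are given beside the main ones. The insulation profiles of the 2 H288R libraries correlated with r = 0.99 over the scored bins, and pairs of full-length libraries with r from 0.95 to 0.99 (bins of 1 region, not independent).

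Insulation at a bin was the negative log2 of mean contact within a 100-kb square across it, relative to the mean over all bins, so that a high score marks a boundary. At the 6 boundary bins of the study, H288R cells had lower insulation at boundary 5, where both libraries lay below all 14 full-length ones. Boundaries 2 and 3 read lower without passing the test, and boundaries 1, 4 and 6 stayed within the full-length range. Boundary 5 (chrX:101211149-101231148) holds neither a FLAG-CTCF peak nor an annotated gene, and it separates the domain of Rlim from the long domain that follows.

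At boundary 5 the H288R scores were 0.44 and 0.45. The full-length scores ran from 0.63 to 0.79 with a median of 0.71. The groups do not overlap. The difference was -0.27 ± 0.038 (SE; limma across 193 scored bins, Benjamini-Hochberg adjusted p = 5.4e-05). By the two-sided exact permutation test it had the smallest p that 2 against 14 libraries allow, 0.0167, which was 0.05 after adjustment over the 6 boundaries and so not under the threshold. Against the pair of full-length libraries from that run, at 0.77 and 0.74, the difference was -0.31 (adjusted p = 4.3e-05 in the limma fit of the 12 libraries of that run). On uncorrected counts it was -0.12 (adjusted p = 0.17), so this call rests on the corrected matrices.

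Boundary 2 (chrX:99411149-99431148, 3 peaks, no annotated gene) scored 0.50 and 0.51 in H288R and 0.55 to 0.85 in full-length cells, again without overlap. Its difference, -0.15 ± 0.057, missed the threshold (limma adjusted p = 0.065) and passed it within the run (-0.14, adjusted p = 0.012). At boundary 3 (chrX:100451149-100471148, in the gene 4930519F16Rik, 1 peak) the scores were 0.28 and 0.30 against 0.30 to 0.44, with 1 of the 2 H288R libraries below every full-length one. That difference of -0.094 ± 0.035 did not pass either (limma adjusted p = 0.062).

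Boundary 4 (chrX:100671149-100691148), which holds the start of Xist and 3 peaks, had the highest score of the 6. It read 1.45 and 1.35 in H288R and 1.15 to 1.68 in full-length cells, a difference of 0.021 with a 95% interval from -0.17 to 0.21. At boundary 6 (chrX:103211149-103231148), where Cox7b, a subunit of cytochrome c oxidase, meets the copper transporter gene Atp7a, H288R scored 0.61 and 0.62 and lay at the low end of 0.60 to 0.91 (-0.083 ± 0.056, limma adjusted p = 0.33). Boundary 1, inside Nhsl2 (chrX:99151149-99171148), scored below 0 in every library of both groups. Its H288R scores of -0.16 and -0.15 lay within -0.26 to -0.093.

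**Figure D1:**
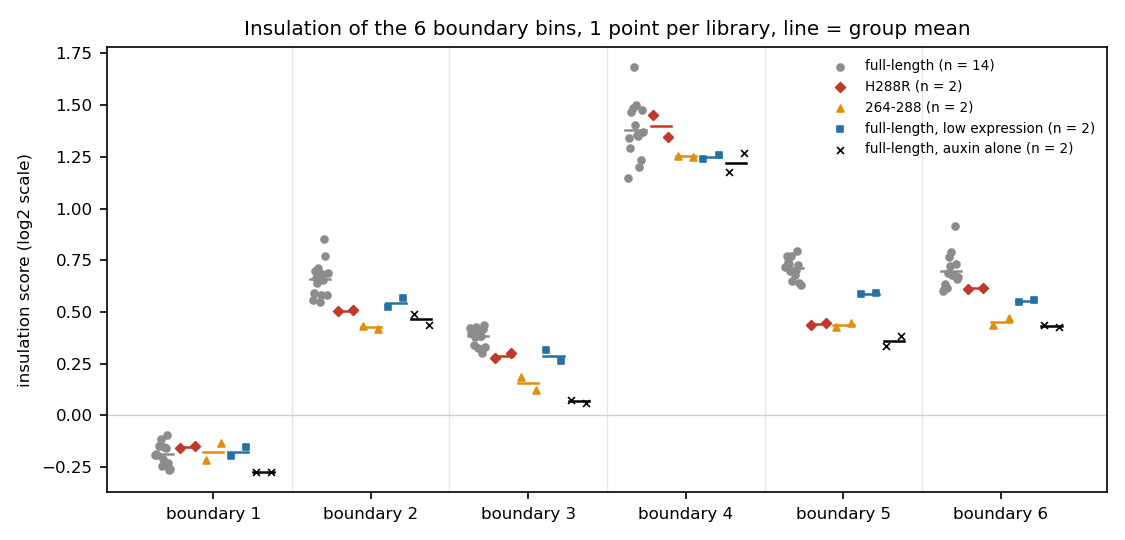
Insulation score (log2 scale, y axis) of each library at the 6 boundary bins (x axis), with a short line at each group's mean. At boundary 5 both H288R points (0.44 and 0.45) lie below all 14 full-length points (0.63 to 0.79) and level with the 264-288 deletion, while at boundary 4 the groups overlap.

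The mean over the 6 boundaries was lower in H288R by 0.091, with boundary 5 contributing the largest part. With boundary 5 left out the difference was -0.055 and no longer passed (two-sided exact permutation test, p = 0.067), and it passed with any other boundary left out.

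Along the whole profile, scores both lower and higher than in full-length cells occurred. Each score is relative to the library's own mean over bins, so a fall at some bins raises others. The 2 directions are therefore not independent, and a higher score is not by itself a gain of insulation. Of 193 scored bins, 23 were lower in H288R (11.9%) and 16 higher (8.29%) at a limma adjusted p under 0.05, in 7 and 6 contiguous stretches. Neighbouring bins share most of their squares and are not independent. The counts depended on having both H288R libraries. All 39 bins kept their direction with either one, but they had been called from the mean of both, so this is no separate support. With replicate 1 alone 3 bins were lower and 0 higher (limma, 22 and 17 at an unadjusted p under 0.05), and with replicate 2 alone 7 and 4 (25 and 16 at an unadjusted p under 0.05). In these fits the full-length libraries alone give the spread and the lone library is assumed to vary like them. The difference in the bin just before boundary 5 was -0.33 or -0.40 with 1 library. On uncorrected counts, which 12 of the 14 full-length libraries have complete, 9 were lower and 10 higher.

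**Figure D2:**
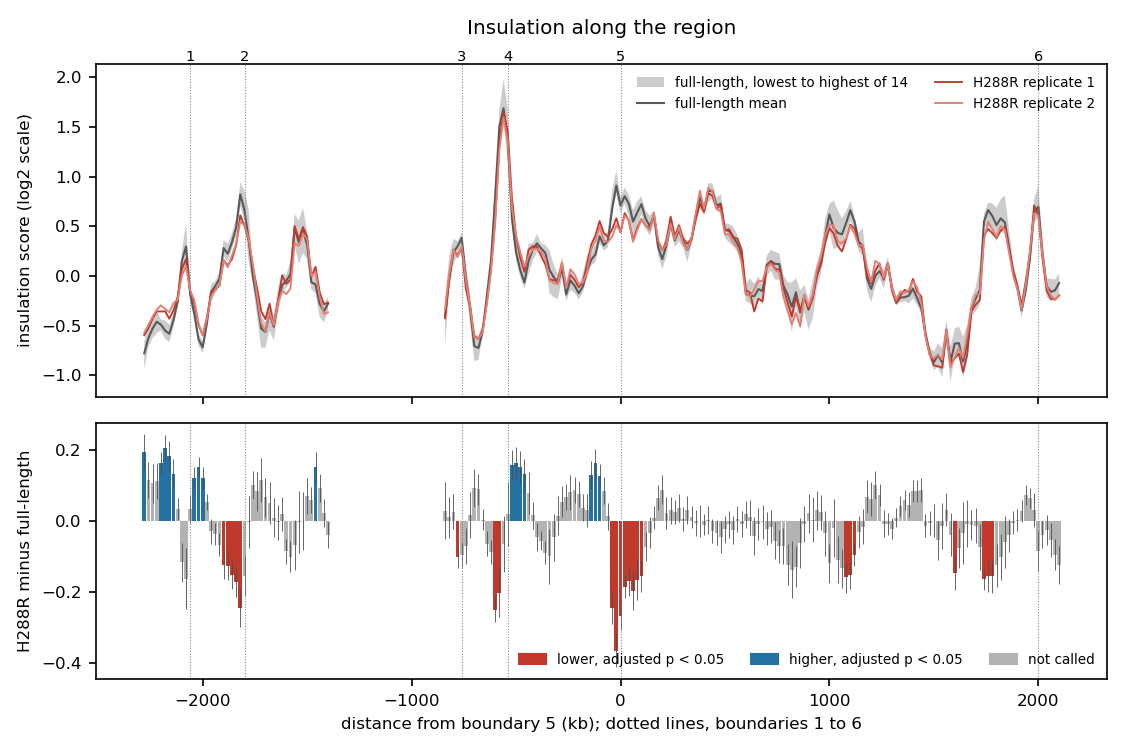
Top, insulation score (log2 scale) along the region for both H288R libraries, the full-length mean and the range of the 14 full-length libraries, against the distance from boundary 5 (kb). Bottom, H288R minus full-length with its SE, coloured where the limma adjusted p was under 0.05. The widest stretch of loss, 8 bins, surrounds boundary 5. Stretches of gain lie before boundary 5, after boundary 4 and on both sides of boundary 1.

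The widest and deepest stretch of lower insulation ran over 160 kb around boundary 5 (chrX:101171149-101331148, 8 bins, 5 peaks). It begins in Rlim, which encodes a ubiquitin ligase that activates Xist. In its lead bin, 20 kb before the boundary bin, H288R scored 0.58 and 0.51 and full-length cells 0.82 to 1.06. The difference there was -0.36 ± 0.046 (limma adjusted p = 3.6e-05), the largest of all scored bins in either direction, and all 8 bins passed within the run as well. The lead bin also passed on uncorrected counts (-0.28, limma adjusted p = 0.0033).

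A stretch of 100 kb (5 bins, 5 peaks) led up to boundary 2. It covers Pin4, Ercc6l and Rps4x, which encode a peptidyl-prolyl isomerase, a mitotic DNA translocase and a ribosomal protein. Its lead bin, next to the boundary bin, read 0.61 and 0.54 in H288R against 0.71 to 0.94 (-0.24 ± 0.054, limma adjusted p = 0.0040), and passed on uncorrected counts (-0.30, adjusted p = 0.043). The boundary 2 bin itself lies just outside this stretch.

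Another stretch covered 40 kb of Tsx and Tsix (chrX:100611149-100651148, 3 peaks), on the approach to the Xist boundary. The lead bin, with the end of Tsx and the start of Tsix, read 0.56 and 0.54 against 0.76 to 0.92 (-0.25 ± 0.035, limma adjusted p = 5.4e-05), with a difference of -0.16 on uncorrected counts (adjusted p = 0.42). The single bin before boundary 3 was lower by 0.10 (limma adjusted p = 0.026) and did not pass within the run (-0.13, adjusted p = 0.071).

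The other 3 stretches of loss lay inside the domain between boundaries 5 and 6, where the study places no boundary. One of 60 kb contains Magee1 and lies 900 kb before boundary 6, where H288R scored 0.52 and 0.50 against 0.55 to 0.75 in its lead bin (-0.15 ± 0.037, limma adjusted p = 0.0084). On uncorrected counts that difference was -0.078 (limma adjusted p = 0.74). Another of 60 kb runs from Fgf16, a growth factor gene, to Atrx, which encodes a chromatin remodeller. Its Fgf16 bin (chrX:102951149-102971148, 1 peak) scored 0.41 and 0.36 against 0.50 to 0.62 (-0.16 ± 0.030, limma adjusted p = 0.00076) and passed on uncorrected counts too (-0.23, adjusted p = 0.0054). The last is a bin without gene or peak, 400 kb before boundary 6 (-0.15, limma adjusted p = 0.033), at -0.049 on uncorrected counts (limma adjusted p = 0.77).

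No boundary bin was among those with higher insulation. The lead bin of the 80-kb stretch after boundary 4, with part of Enox (also named Jpx), a noncoding activator of Xist, scored 0.79 and 0.695 against 0.50 to 0.68 (0.16 ± 0.042, limma adjusted p = 0.013), 0.13 on uncorrected counts (adjusted p = 0.41). A 60-kb stretch 120 kb before boundary 5 scored 0.41 and 0.35 against 0.14 to 0.31 in its lead bin (0.16 ± 0.040, limma adjusted p = 0.0085). It passed on uncorrected counts as well (0.21, limma adjusted p = 0.014).

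Around boundary 1, stretches of 80 kb before it and 60 kb after it were higher, both with a lead bin in Nhsl2, with scores of -0.36 and -0.33 against -0.64 to -0.45 (0.21 ± 0.037, limma adjusted p = 0.00067) and of -0.49 and -0.48 against -0.70 to -0.59 (0.15 ± 0.029, limma adjusted p = 0.000885). Single bins at the start of the region and in Phka1, the gene of a phosphorylase kinase subunit, were higher by 0.195 and 0.15 (limma adjusted p = 0.011 and 0.021). On uncorrected counts they did not pass (limma adjusted p = 0.085 and 0.18), and in Phka1 1 of the 2 H288R libraries lay outside the full-length range. Of the bins that were lower, 34.8% held a peak, and of those that were higher 31.2%, against 21.2% of all scored bins.

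Contacts on either side of each boundary, up to 500 kb from it, were then compared as the mean log2 of observed over expected. The expected value was the mean at the same distance in the same library. More contacts in 1 place therefore go with fewer elsewhere at that distance. Bin pairs at 0 were left out of each library's mean, here and in the later means of log2. Between boundaries 5 and 6 they made up 0.27% to 5.42% of pairs in full-length libraries. H288R cells made more contacts across boundaries 2 and 5 and fewer across boundary 6. Across boundary 5 the 2 libraries read -0.61 and -0.58 against -1.04 to -0.77 in full-length cells, a difference of 0.28 (exact permutation test, p = 0.0167, adjusted over the 6 boundaries 0.033). This is above every full-length library and below both 264-288 libraries (mean -0.475) and both auxin-alone libraries (mean -0.43). Of the other deletions of the run, the one labelled 179-265 read -0.50 and -0.55, and those labelled 1-88 and 89-178 read -0.702 to -0.655. Across boundary 2 the values were -0.38 and -0.36 against -0.64 to -0.40 (0.10, exact permutation test, adjusted p = 0.033). The difference across boundary 3 was as large, at 0.10, but not under the threshold (exact permutation test, adjusted p = 0.05). There 1 of the 2 H288R libraries lay above every full-length one.

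Across boundary 6 the direction was the opposite, although the score of its bin stayed within the full-length range. The 2 H288R libraries read -0.17 and -0.15 and the full-length libraries 0.016 to 0.23 (-0.30, exact permutation test, adjusted p = 0.033). They were also below the 2 libraries each of 264-288 (mean 0.0024), of low expression (mean 0.20) and of auxin alone (mean -0.050). The drop is not particular to H288R, since the deletion labelled 179-265 of the same run read -0.074 and -0.18. Within the run the differences were 0.23 at boundary 5, 0.054 at boundary 2 and -0.27 at boundary 6, with 0.333 the smallest p that 2 against 2 libraries allow. On uncorrected counts they were 0.28, 0.094 and -0.24, and none of the 3 passed (exact permutation test, adjusted p = 0.066, 0.088 and 0.066).

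Within the 7 segments that the boundaries define, 3 differed. The segment before boundary 1 held fewer contacts in H288R, at 0.18 and 0.23 against 0.33 to 0.50. The segment between boundaries 1 and 2, with the later part of Nhsl2, held more, at 0.11 and 0.13 against -0.0096 to 0.087. The segment between boundaries 5 and 6, which holds Uprt, Zdhhc15, Magee2, Fgf16, Atrx and Magt1, also held more, at -0.13 and -0.13 against -0.35 to -0.18. These differences were -0.22, 0.077 and 0.12 (exact permutation test, adjusted over the 7 segments p = 0.039 each), and -0.25, 0.057 and 0.076 within the run.

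The remaining segments did not pass. The one between boundaries 2 and 3, with Cited1, Hdac8, Phka1 and Nap1l2, read 0.12 and 0.12 against 0.069 to 0.33, and the one between boundaries 4 and 5, with Rlim, 0.0088 and 0.0051 against 0.0068 to 0.16. The short segment of Cdx4, Chic1, Tsx and the start of Tsix between boundaries 3 and 4 read 0.30 and 0.32 against 0.21 to 0.33, and the segment after boundary 6 -0.15 and -0.16 against -0.32 to -0.15. On uncorrected counts no segment passed (exact permutation test; 3 of the differences above were then -0.27, 0.045 and 0.12, with adjusted p = 0.051, 0.36 and 0.051).

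**Figure D3:**
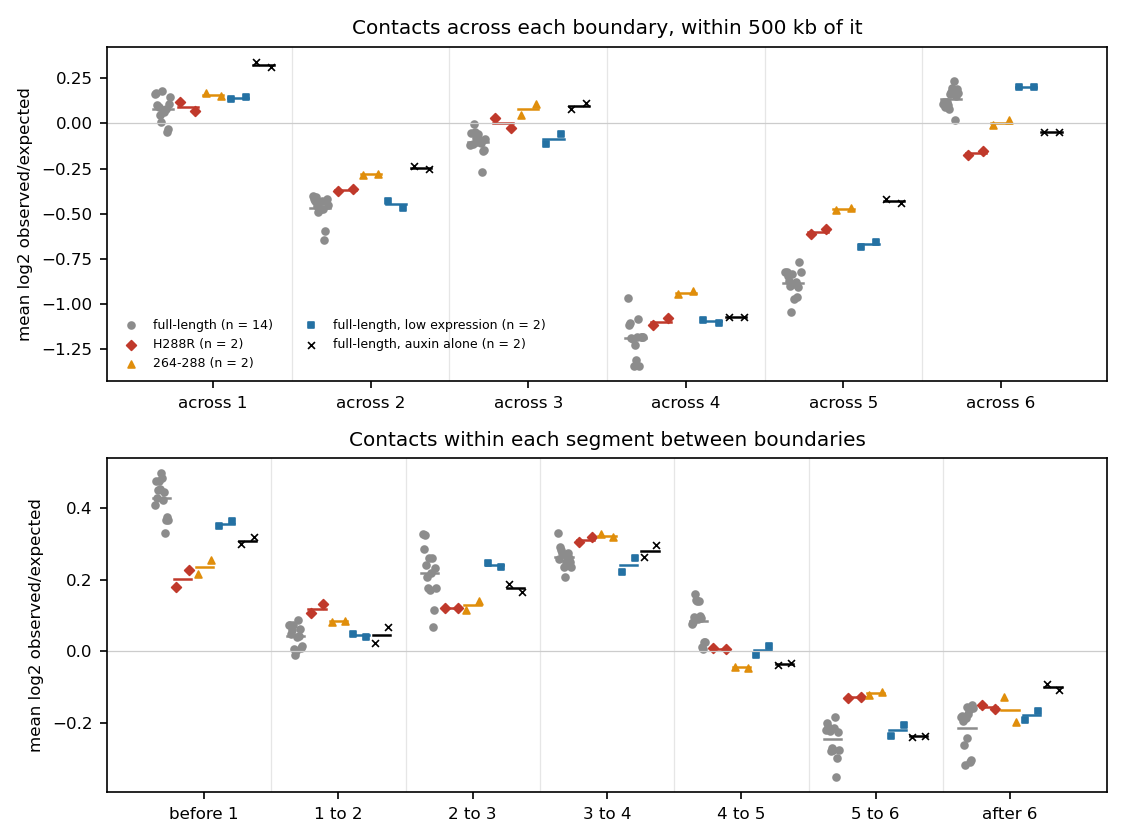
Mean log2 of observed over expected contacts (y axis) across each boundary, up to 500 kb from it (top), and within each segment between boundaries (bottom), 1 point per library and a line at each group's mean. H288R lies above the full-length libraries across boundaries 2 and 5 and below them across boundary 6, and above them within the segment from boundary 5 to 6.

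The map of both groups showed where these contacts lie. In blocks of 60 kb, H288R contacts exceeded full-length ones across boundary 5 and, over a wider patch, between the part of the domain before the Magee1 stretch and the part after it. Contacts from the last part of that domain past boundary 6 were fewer. Mean log2 of observed over expected across the Magee1 bin, 1100 kb after boundary 5, was -0.35 and -0.28 in H288R against -0.90 to -0.51 in full-length cells, -0.33 and -0.30 in 264-288 cells, -0.59 and -0.57 in low-expression cells and -0.57 and -0.56 with auxin alone. Across the Fgf16 bin, 1740 kb after boundary 5, the mean was lower in H288R, at -0.58 and -0.59 against -0.42 to -0.18 (264-288 at -0.54 and -0.55, auxin alone at -0.55 and -0.54, low expression at -0.38 and -0.37), although its 100-kb insulation score had fallen too. The bins were chosen by their insulation in the same maps, so these values are a description with no test.

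**Figure D4:**
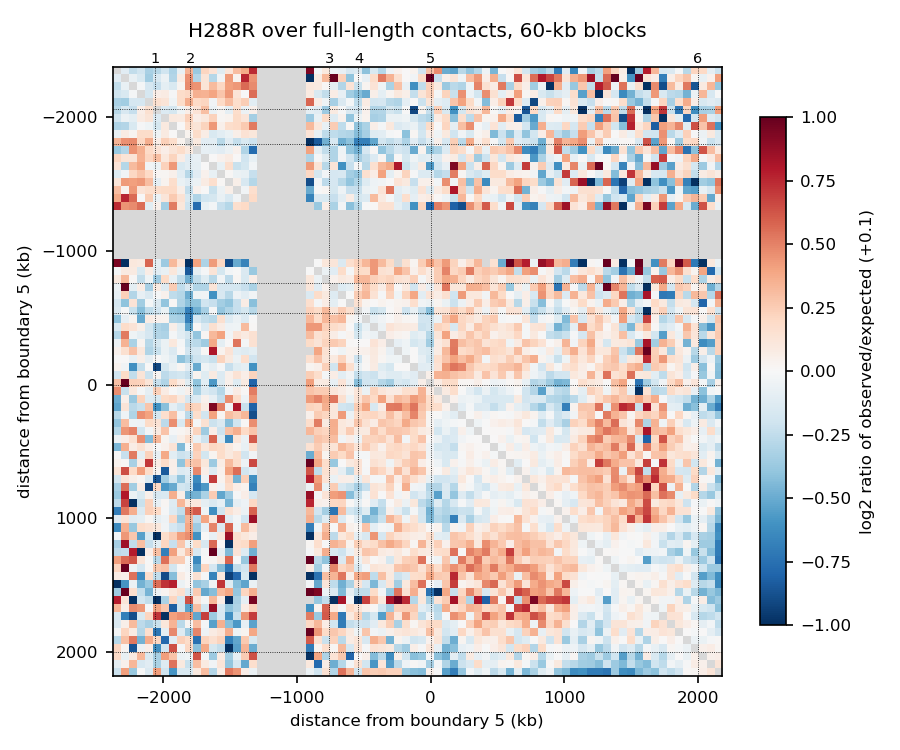
Log2 ratio of mean observed over expected contacts (with 0.1 added) in 2 H288R over 14 full-length libraries, in 60-kb blocks, with both axes in kb from boundary 5, dotted lines at boundaries 1 to 6 and grey for no data. Red blocks (more contacts in H288R) lie across boundary 5 and between the parts of the domain on either side of 1100 kb, and blue blocks (fewer) past boundary 6.

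The fall of contacts with distance was close to that of full-length cells. Contacts 40 to 100 kb apart made up 26.4% and 26.1% of all contacts of 40 kb or more in H288R and 23.3% to 26.5% in full-length cells. Those 400 to 1000 kb apart made up 20.4% and 20.5% against 20.8% to 22.04%, below every full-length library (p = 0.0167). None of the 6 distance classes passed the adjusted exact permutation test, with 1 of 6 at an unadjusted p under 0.05 (adjusted p = 0.10 for 400 to 1000 kb).

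Single pairs of bins were compared in the same fit for the whole map. Of 18378 pairs, 20 had fewer contacts in H288R (0.109%), and 0 had more (limma on log2 of observed over expected + 0.1, adjusted p under 0.05; at an unadjusted p under 0.05, 968 were lower and 687 higher). In 8 of the 20 both H288R libraries are listed at 0, in 3 one of them is, and for 6 pairs the counts were also 0 in both, against full-length medians of 8.5 to 42.5 counts. With 0.5 added in place of 0.1 no pair passed, and within the run 3 lower pairs did, with 0 of the 20 among them. The 5 with the lowest p are given first.

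Of these 5, the lowest p belonged to a pair 3460 kb apart, between Phka1 and Magt1, which encodes a magnesium transporter. It was listed at 0 in both H288R libraries and at 0.98 to 11.8 times the expected value in full-length cells (limma adjusted p = 0.0027). The pairs 2360 kb apart (to C77370) and 2480 kb apart (from Hdac8) were also at 0 in both, against 0.33 to 1.34 and 0.35 to 2.00 (limma adjusted p = 0.0042 and 0.013). The first of them had 0 and 11 counts in H288R against 11 to 64, so that its second 0 is not an absence of contacts. The pair 1140 kb apart that ends in Tlr13, a receptor for bacterial RNA, read 0.19 and 0 against 0.57 to 4.68 (limma adjusted p = 0.016). Its counts were 68 and 95 in H288R, within the 68 to 349 of full-length cells. The 0 of replicate 2 is therefore not an absence of contacts, and its origin was not tested.

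The only 1 of the 5 with a corrected value above 0 in both H288R libraries joins Hdac8, a histone deacetylase that acts on cohesin, to the Tsix bin with 3 peaks, 1040 kb away (chrX:99591149-99611148 and chrX:100631149-100651148). It read 0.63 and 0.42 times the expected value in H288R and 0.85 to 1.53 in full-length cells, with 0.85 and 1.34 in the same run. The difference was -1.18 ± 0.17 on the log2 scale with 0.1 added (limma adjusted p = 0.013). Counts were 441 and 399 in H288R and 232 to 1588 in full-length cells.

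Other called pairs were picked after their values were seen, because they share these bins or hold Xist. The same Tsix bin, which carries the reverse-strand matches shown above, had fewer contacts with Phka1, 880 kb away (0.64 and 0.75 against 1.16 to 1.85, limma adjusted p = 0.039). It also had fewer with another Hdac8 bin 1080 kb away (0.47 and 0.69 against 0.83 to 1.32, limma adjusted p = 0.047). Among the alternative settings, the Phka1 pair kept its call in 12 and lost it in 13. The pair 1080 kb apart kept its call in 4 and lost it in 21, and the pair 1040 kb apart in 20 and 5. In these 3 pairs the libraries of auxin alone, with no transgene induced, read 1.45 to 2.09.

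The boundary 4 bin at the start of Xist and the Rlim bin, 500 kb apart and with matches on the forward and on the reverse strand, made 1.17 and 1.42 times the expected contacts in H288R. Full-length libraries made 2.11 to 3.08 times, with 2.41 and 2.98 in the same run, 264-288 libraries 1.43 and 1.68, low-expression libraries 2.27 and 2.36, and auxin-alone libraries 1.89 and 1.53. The H288R values are the lowest of all 22 libraries. The difference from full-length was -0.87 ± 0.14 on the log2 scale with 0.1 added (limma adjusted p = 0.020), from 376 and 550 counts against 420 to 1520.

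**Figure D5:**
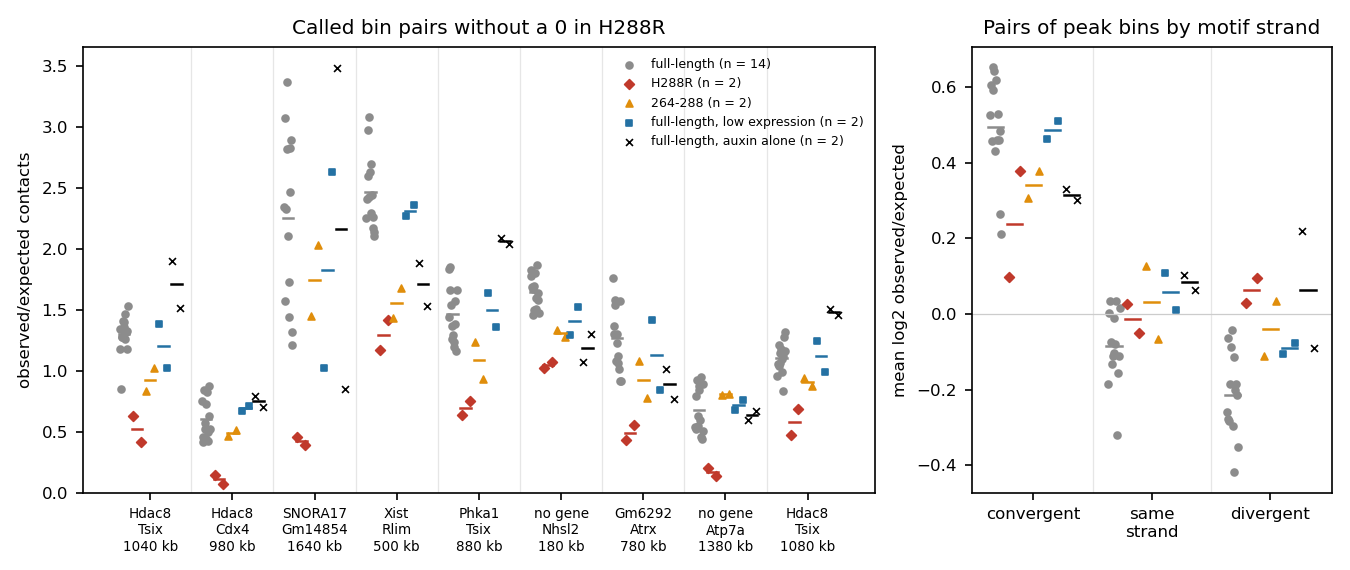
Left, observed over expected contacts (linear scale) of the 9 called bin pairs in which no H288R library is at 0, named by a gene in each bin and their distance, 1 point per library. Right, mean log2 of observed over expected between peak bins grouped by the strand of their motif matches. H288R lies below every full-length library in all 9 pairs, which were chosen by that difference, and above them for divergent pairs.

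Pairs of bins that both hold a peak, 100 to 1000 kb apart, were compared as a set of 344 pairs. Their mean log2 of observed over expected was 0.11 ± 0.0053 (SD, n = 2) in H288R and 0.087 ± 0.032 (SD, n = 14) in full-length cells (exact permutation test, p = 0.33, adjusted over 3 sets 0.45). Pairs with 1 peak bin read -0.19 against -0.22 (p = 0.45, adjusted p = 0.45). Pairs with none read -0.29 against -0.37, with both H288R libraries above all full-length ones (p = 0.0167, adjusted p = 0.05, not under the threshold). A second form kept pairs at 0 and took the log2 of the mean over pairs in place of the mean of log2. With it the difference for 2 peak bins turned to -0.051 (exact permutation test, adjusted p = 0.025), so no direction can be given for this set. Which of these changes moved the value was not tested.

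Splitting the peak bins by motif strand, a step added after the data were seen, gave differences in both directions. The 25 convergent pairs read 0.097 and 0.38 in H288R and 0.21 to 0.65 in full-length cells (difference -0.26, exact permutation test, p = 0.05, adjusted over 3 sets 0.075). The 25 divergent pairs read 0.030 and 0.096 against -0.42 to -0.043, above every full-length library (difference 0.28, p = 0.0167, adjusted p = 0.05, not under the threshold). The 48 pairs on the same strand read 0.027 and -0.050 against -0.32 to 0.035 (adjusted p = 0.30). Within the run the differences were -0.29, 0.23 and -0.031, and on uncorrected counts -0.23, 0.049 and -0.032 (exact permutation test, adjusted p = 0.26, 0.53 and 0.53).

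Contacts between boundary bins themselves (3 by 3 bins around each of 15 pairs) gave no adjusted call by the exact permutation test, with 4 of 15 at an unadjusted p under 0.05. Boundaries 2 and 3 read lower by 0.46 and boundaries 3 and 4 higher by 0.50, both outside the full-length range in both libraries (p = 0.0167, adjusted p = 0.13). Boundaries 2 and 4 read lower by 0.94, with values of 0.29 and -0.28 in H288R against 0.20 to 1.23 (p = 0.033, adjusted p = 0.13).

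The H288R profile was last set beside the other groups in 1 limma fit of 22 libraries. The 264-288 line lacks the stretch that ends in residue 288, and 45 of 193 bins (23.3%) were lower and 36 (18.7%) higher in it than in full-length cells. H288R and 264-288 differed at 1 bin of 193 (0.518%; 10 bins lower and 18 higher in H288R at an unadjusted p under 0.05). At boundary 5 the 264-288 libraries scored 0.43 and 0.45, and H288R minus 264-288 was 0.0048 with a 95% interval from -0.092 to 0.10. Such a score is not particular to these 2 lines. The deletion labelled 179-265 of the same run, outside this fit, scored 0.40 and 0.45 there. The deletions labelled 1-88 and 89-178 of that run scored 0.62 to 0.67. At boundary 3, with 264-288 at 0.19 and 0.12, the difference was 0.13 with an interval from 0.042 to 0.22 (limma adjusted p = 0.11). At boundary 6, with 264-288 at 0.43 and 0.47, it was 0.16 with an interval from 0.018 to 0.30 (limma adjusted p = 0.26). The same 2 H288R libraries enter each contrast with another group. An adjusted p above the threshold does not show that the 2 mutants act alike.

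The low-expression line carries no mutation in its transgene and had a mean boundary insulation of 0.51, close to that of H288R (0.52). Against full-length cells in this fit, 1 of 193 bins was lower and 0 higher in low expression (28 and 16 at an unadjusted p under 0.05). For H288R these were 26 and 16 (37 and 35 at an unadjusted p under 0.05). H288R and low expression differed at 7 of 193 bins (3.63%), 3 lower and 4 higher in H288R. The lower ones were the bin before boundary 5 (0.58 and 0.51 against 0.81 and 0.82, limma adjusted p = 0.0051), the bin of Tsx and the start of Tsix (0.56 and 0.54 against 0.75 and 0.77, limma adjusted p = 0.0051) and the Fgf16 bin (0.41 and 0.36 against 0.54 and 0.56, limma adjusted p = 0.0077). The boundary 5 bin itself differed by -0.15 (95% interval from -0.24 to -0.050, limma adjusted p = 0.080). The study compared transgene levels between its lines by flow cytometry of a fused mRuby2 and reports insulation defects for H288R. Those levels were not used here. How much transgenic protein the H288R line held relative to either full-length line was therefore not tested here.

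Against auxin alone, where no transgene was induced, H288R differed at 23 of 193 bins (11.9%), 11 lower and 12 higher. Boundary 3 was higher in H288R (0.28 and 0.30 against 0.073 and 0.061, limma adjusted p = 0.0014), as were 3 bins after boundary 5 (by 0.20 to 0.23). The bins of Rlim before boundary 5 were lower (by 0.26 and 0.31, limma adjusted p = 0.0019 and 0.00012), and so were those from Fgf16 to Atrx (by 0.18 to 0.29). At boundary 5 the difference of 0.084 had a 95% interval from -0.012 to 0.18 (limma adjusted p = 0.24).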

How the data were processed

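5C was made from HindIII-digested chromatin ligated in situ. The authors assigned reads to pairs of primers (mm9) and deposited counts for each forward and reverse primer. They also deposited an iteratively corrected contact signal (cooltools, fragment level, poorly covered primers left out), which 2 full-length libraries hold on another scale than the rest. Every measure taken from that signal is a ratio or share within a library. The submitters' processing notes name Bowtie2 and SAMtools, and the aligner used for 5C is not given in the sources used here. The peak list came from FLAG ChIP-seq of the full-length line after 2 days. Groups came from the genotype and treatment labels, and members, boundaries and gene lists were chosen with earlier results of these data known.

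Corrected values were averaged in 20-kb bins. Insulation used 100-kb squares with at least 50% of bin pairs measured, which left 193 of 230 bins. limma 3.58.1 (R 4.3.3) tested all scored bins, and 18378 bin pairs 60 kb or more apart (log2 of observed over expected + 0.1, lowest 10% of mean contact left out), with Benjamini-Hochberg adjustment and a threshold of 0.05. Single values were tested by two-sided exact permutation of 2 against 14 libraries (scipy 1.17.1, all 120 assignments). edgeR 4.0.16 and DESeq2 1.42.0 on the deposited counts, a window of 200 kb, a pseudocount of 0.5, uncorrected counts, the 12 libraries of the same run and leaving out each library were alternatives. Named were the 6 boundary bins, the bin with the lowest adjusted p of each stretch of called bins, and the 5 bin pairs with the lowest adjusted p, with GENCODE vM1 genes in those bins. Fits were tested on simulated data. Totals were 5262254 to 23096139 counts in the H288R and full-length auxin and dox libraries with complete counts, and 3631870 in the shallowest low-expression library. Count matrices that stop early (2 full-length with auxin and dox, 1 with auxin alone) were not used.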

Additional observations from a re-analysis of the deposited data

Results flagged for a closer look

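One bin separated H288R from the 264-288 deletion in the test of their difference. The bin at chrX:102451149-102471148, 1240 kb after boundary 5, with 1 peak and no annotated gene, scored 0.13 and 0.12 in H288R and -0.054 and -0.054 in 264-288. The difference was 0.1765 (SE 0.037, 95% interval from 0.10 to 0.25, limma adjusted p = 0.015), and the full-length mean lay between them at 0.048. The same bin was also higher in H288R than in low-expression cells (0.17, limma adjusted p = 0.0051) and than with auxin alone (0.18, limma adjusted p = 0.0018).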

How the results depend on the processing

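The lower mean insulation over the boundaries kept its direction in every alternative run. It was -0.075 within the run of library numbers, where 2 against 2 libraries cannot pass, -0.076 as log2 of contacts within over across, -0.055 without boundary 5 (added after the data were seen) and -0.049 as the difference between equal replicate numbers (replicate block). Leaving out each library gave -0.096 to -0.083. Boundaries called numbered 0 on uncorrected counts, 2 within the run and 1 to 3 with a library left out. Lower bins numbered 9 on uncorrected counts and 0 with the replicate block, and 3 to 26 with a library left out. Higher bins numbered 30 with a 200-kb window, 10 on uncorrected counts, 27 within the run, 25 with the run as a block, 0 with the replicate block and 0 to 18 with a library left out. Equal replicate numbers did not deviate together (correlations -0.28 and 0.042), so they were not read as pairs.

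Boundaries with changed contacts across them fell from 3 to 0 on uncorrected counts and numbered 3 to 4 with a full-length library left out. Segments numbered 0 on uncorrected counts and 3 to 4 with a full-length library left out. They numbered 5 with the log2 of the mean over all pairs, those at 0 included, in place of the mean of log2. The difference between peak bins was -0.019 on uncorrected counts, -0.00041 within the run, and 0.018 to 0.027 with a library left out. It was -0.051 with that log2 of the mean over all pairs. Bin pairs with fewer contacts numbered 0 with a pseudocount of 0.5, 12 without division by the expected value, 3 within the run, 1 with the run as a block, 0 with the replicate block, 13 by edgeR, 248 by DESeq2, and 12 to 44 with a library left out. Those with more contacts numbered 2 without the filter on low contact, 1 without division by the expected value, 1 within the run, 1 with the run as a block, 1 by edgeR, 1 by edgeR without a filter, 28 by DESeq2, and 0 to 1 with a library left out. The cause of these shifts was not tested. Only 2 H288R libraries of 1 clone limit every comparison, and few counts limit pairs far apart.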
